A study of Mus musculus with 2 samples.

Results

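The basement membrane genes described here are 33 genes of the nidogen, laminin, collagen IV, perlecan, agrin and integrin families, out of 55415 genes in the deposited gene table. They were taken by name from a fixed list that used no measured value. Each had at least 20 UMIs (unique molecular identifiers, counted transcripts) in the deposited matrices of both libraries together. The series holds single-cell transcript counts of mouse liver biliary epithelium, 1 library labelled Sox9cKO and 1 labelled Sox9con. The design text names the second as the control. Sox9 is a transcription factor of the bile duct lineage. The age and strain of the mice, the Cre line and the number of mice behind each library are not given in the sources used here.

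There were 2740 cells in the Sox9cKO library (14856321 UMIs in all, median 5020 per cell) and 3622 in the Sox9con library (12811243 UMIs in all, median 3161 per cell). In the biliary fraction, defined next, Sox9 itself had 122 CPM (a gene's UMIs scaled to all UMIs summed over the same cells of that library) in the first and 146 CPM in the second, a log2 ratio of -0.25 (-0.35 to -0.16), and it was lower in 10 and higher in 10 of the 20 well pairs (1 barcoding well from each library). The counts therefore do not clearly bear out the label, so the libraries go by their labels here, cKO-labelled and control-labelled, and all directions depend on those labels being right. The compared cells are the biliary fraction, 2598 and 3370 cells that were left once endothelial-like and unnamed clusters were taken out, and the endothelial-like cells, 85 and 117 cells in which 14 of 14 endothelial markers were detected. No complete cell barcode was shared between the libraries (0), and 149 combinations of the later barcodes were. Each library was loaded in first-round wells of its own, 5 and 4, so wells and labels cannot be told apart. Wells give a technical spread only, and 1 library per label allows no test, so p-values are left out. Intervals are 95% intervals that cover counting error alone.

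A basement membrane is a thin sheet of extracellular matrix under epithelia and around vessels. Laminins are trimers of an alpha, a beta and a gamma chain that form its first network. Collagen IV trimers form another network, and nidogens and the heparan sulfate proteoglycans perlecan and agrin join the networks. Integrins are cell-surface receptors of an alpha and a beta chain. Those with alpha 1 and alpha 2 bind collagens, those with alpha 3 and alpha 6 bind laminins, and those with alpha v or alpha 5 bind ligands with an RGD peptide such as fibronectin and the latent form of TGF-beta. In the liver, bile ducts rest on a laminin-rich basement membrane, which the sinusoids lack in its usual form.

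Most of these genes had a higher level in the cKO-labelled biliary fraction. Of the 33, 28 had at least 200 UMIs there, and 23 of these had a log2 ratio (cKO-labelled over control-labelled) above 0, where 41.5% of all 9322 genes with that many UMIs did. The 5 below 0 were Lama4, Itga6, Itga9, Itgb5 and Itgb8. The median of the 28 was 0.48, and that of all genes was -0.07. The median of the 28 was above 0 in 20 of 20 well pairs, from 0.02 to 0.69, and it was 0.27 without control-labelled well D10. The counting interval of the ratio lay above 0 for 20 genes (background 22.6%), below 0 for 3 (background 36.7%) and across 0 for 5. At least 2-fold higher were 3 genes, Nid1, Lama3 and Itga2 (background 2.19%), and 0 were at least 2-fold lower (background 1.8%). With TMM scaling the all-gene median moved to 0.03 and with DESeq2 size factors to 0.04, 23 of the 28 stayed above 0 under each, and 5 were at least 2-fold higher. The 41.5% share above 0 belongs to the main scaling, and that share was not computed under the other scalings. Over all genes, 204 were at least 2-fold higher and 168 lower, against 246 and 117 with TMM and 250 and 110 with DESeq2. The wells of the libraries did not overlap for 12 of the 28. These were higher in cKO-labelled wells for 10 (Nid1, Lama3, Lamb3, Lamc3, Col4a1, Col4a2, Itga1, Itga2, Itgav and Itgb6; background 7.64%) and lower for Lama4 and Itga6 (2 genes; background 8.36%). Both libraries ran through the same 8 sublibraries, which are technical units and not replicates. Within them 15 of the 28 genes were higher in 8 of 8 (background 9.73%), among them Lama5, Hspg2 and Agrn, whose wells overlapped, and 3 were lower in 8 of 8, Lama4, Itga6 and Itgb8 (background 16.8%). Nid2, Lama1, Lama2, Col4a6 and Itgb3 were under 200 UMIs.

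The libraries also differed in which clusters they filled. Of 8 biliary clusters, a cluster led by Hp, Serpina1b and Tbx1 held 543 cKO-labelled cells and 1 control-labelled cell, and a cluster led by Ifi202b, Trpm6 and Medag held 776 and 27. A cluster led by Grap2, Chil4 and Kcnj16 held 118 and 1194, and a cluster led by Cldn10 and Adgrv1 held 64 and 867. A ratio of library sums therefore holds both a change in cluster sizes and a change within clusters. At an equal mix of clusters (a Mantel-Haenszel ratio over clusters, chosen after the data were seen) the median of the 28 genes was 0.31 and that of all genes -0.06. The name does not mean that all clusters count equally. A cluster is weighted by the UMIs of both libraries in it, so one almost wholly of 1 library counts for less than its size. The Hp cluster (3569357 cKO-labelled and 5582 control-labelled UMIs) thus hardly enters. The Ifi202b cluster (4609650 and 140967) does enter, and its control side rests on 27 cells. The equal-mix ratio was above 0 for 25 of the 28. Its interval lay above 0 for 17 (background 16.6%) and below 0 for 1, Itga6 (background 27.4%). The 6 clusters with at least 50 cells of each library are called shared clusters here, and a gene was compared in a shared cluster where it had at least 20 UMIs.

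**Figure D1:**
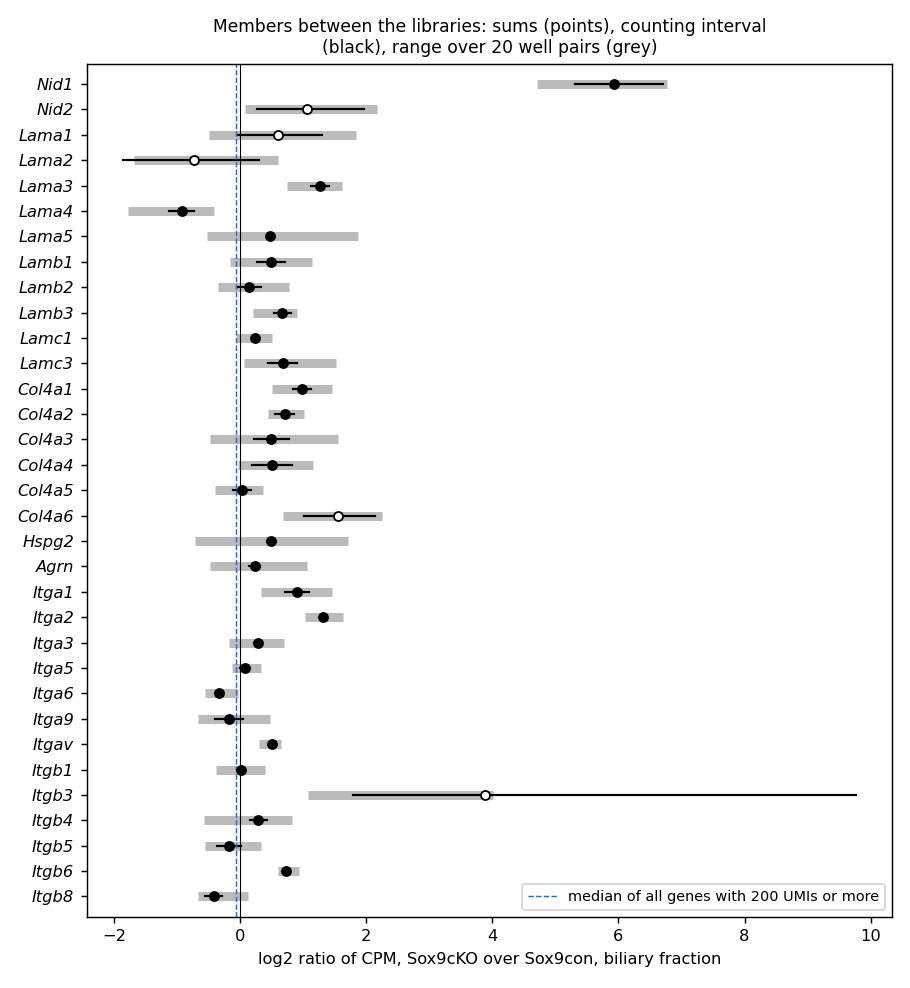
Log2 ratio of CPM, cKO-labelled over control-labelled, in the biliary fraction for all 33 genes (points; open points are the 5 genes under 200 UMIs), with the 95% counting interval (black) and the range over 20 well pairs (grey); the dashed line is the median of all genes. Nid1 stands at 5.93 and most other genes lie between 0 and the values of Lama3 and Itga2, while the grey ranges of Lama5 and Hspg2 cross 0.

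Nidogens. Nid1 (ENSMUSG00000005397) encodes nidogen-1, the linker between laminin gamma chains and collagen IV. In biliary cells it had 74.5, 82.4, 103, 124 and 104 CPM in the cKO-labelled wells A11, A12, B1, B2 and B3. The control-labelled wells D9, D10, D11 and D12 had 1.28, 1.29, 0.935 and 2.65 CPM. Every cKO-labelled well was thus far above every control-labelled well. The biliary fraction as a whole held 1403 UMIs (97.7 CPM, 92.6 to 103) and 19 UMIs (1.56 CPM, 0.939 to 2.44), a log2 ratio of 5.93 (5.32 to 6.70). Each cell was also thinned to 2000 UMIs, and cells with fewer UMIs were dropped. After that, 8.42% of 2459 cKO-labelled cells (7.35 to 9.59) and 0.321% of 2806 control-labelled cells (0.147 to 0.608) had a Nid1 UMI. Unthinned shares were 15.2% and 0.504%.

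Nid1 was unevenly spread over the biliary clusters. The Hp cluster held 75.8% of its cKO-labelled UMIs, at 298 CPM (280 to 317), and the Ifi202b cluster held a further 238 UMIs at 51.6 CPM. Both clusters are almost wholly cKO-labelled. In the 27 control-labelled cells of the Ifi202b cluster there were 0 UMIs, which allows up to 21.3 CPM. Among the shared clusters the cluster led by Scgb3a1 and Gata3 was the only one with 20 Nid1 UMIs or more, and Nid1 was there at 28.0 CPM (82 UMIs) and 1.94 CPM (4 UMIs), with a log2 ratio of 3.72 (2.44 to 5.76). Without the Hp cluster the library ratio was 4.29 (3.67 to 5.08), and at an equal mix of clusters it was 3.29 (2.35 to 4.23). Over all kept cells, endothelial-like and unnamed ones included, it was 2.76. Hepatocyte markers were also higher in the cKO-labelled library. All 9 were detected in the biliary fraction of both libraries, at a summed 814 to 1154 CPM over cKO-labelled wells and 571 to 706 CPM over control-labelled wells. They came to 1698 CPM in the Hp cluster with 1 marker at 0, and 1355 CPM in the Ifi202b cluster with 0 at 0. Among cKO-labelled cells these 2 clusters were the highest for both the markers and Nid1. The cluster led by Muc6 and Cpa1 was the lowest for both, at 107 and 1.83 CPM. The control-labelled cells of the Banf2 and Cldn10 clusters had 1270 and 1067 CPM of the markers and 4.58 and 1.32 CPM of Nid1, which had 19 UMIs in that whole library fraction. The part of the hepatocyte markers in the Nid1 result was not tested.

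Endothelial-like cells carried Nid1 in both libraries, at 294 CPM (232 to 367; 77 UMIs) in the cKO-labelled and 448 CPM (381 to 523; 160 UMIs) in the control-labelled library. The wells ran from 112 to 695 CPM and from 234 to 640 CPM and overlapped. The log2 ratio between libraries was -0.61 (-1.02 to -0.21) in these cells, the opposite sign to the biliary fraction. The 14 endothelial markers summed to 29.7 to 48.9 CPM over the cKO-labelled wells of the biliary fraction and 38.9 to 57.0 CPM over the control-labelled wells, with 0 markers at 0. Were all those UMIs free endothelial RNA, the Nid1 to marker ratio of endothelial-like cells would bring 10.7 Nid1 UMIs to the cKO-labelled biliary fraction, where 1403 were counted, and 18.1 to the control-labelled one, where 19 were counted. The part of free RNA in either count was not tested. Nid2, encoding the related nidogen-2, had 45 and 18 UMIs in biliary cells, a log2 ratio of 1.06 (0.27 to 1.96), and 7 and 6 in endothelial-like cells. The 250 bases upstream of the annotated Nid1 start are shown because Nid1 has the highest ratio of these genes (RefSeq, GRCm38.p6, chr13:13437352-13437601, plus strand). Capitals mark CATTCC, the core of the TEAD motif, found as its reverse complement, and CCAAT, the CCAAT box, found as its reverse complement.
Nid1: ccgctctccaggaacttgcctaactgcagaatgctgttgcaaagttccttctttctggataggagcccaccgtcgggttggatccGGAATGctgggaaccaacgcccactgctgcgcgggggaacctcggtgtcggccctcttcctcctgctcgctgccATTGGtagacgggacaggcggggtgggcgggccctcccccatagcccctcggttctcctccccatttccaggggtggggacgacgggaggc

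Laminin alpha chains. Lama5 encodes the alpha 5 chain of laminin-511 and laminin-521, Lama3 the alpha 3 chain of laminin-332, and Lama4 the alpha 4 chain of vessels. Lama3 had 82.1, 110, 97.4, 124.8 and 100.5 CPM in the cKO-labelled wells A11 to B3, and 43.2, 40.6, 41.1 and 49.0 CPM in control-labelled wells D9 to D12. The groups of wells did not overlap. The library levels were 105 and 43.6 CPM, a log2 ratio of 1.26 (1.12 to 1.41). Lama3 was also higher in each of the 6 shared clusters, with an interval above 0 in 6 of 6 and ratios from 0.46 to 3.40. The widest gaps were in the cluster led by Slc28a2 and Ltf, with 146 against 13.3 CPM (102 and 13 UMIs), and in the cluster led by Banf2 and Scn11a, with 155 against 13.8 CPM (46 and 9 UMIs). The ratio was 0.95 (0.79 to 1.11) at an equal mix of clusters.

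Lama4 went the other way. Its cKO-labelled wells had 14.2, 20.5, 26.3, 26.2 and 24.4 CPM and its control-labelled wells 49.1, 40.2, 35.1 and 43.4 CPM, again without overlap. The library ratio was -0.93 (-1.13 to -0.73) on the log2 scale. The ratio was 0.07 (-0.19 to 0.33) at an equal mix of clusters. Of the 6 shared clusters, 3 were higher and 3 lower. In the Ifi202b cluster, which is not among the shared ones, Lama4 had 12.1 and 106 CPM on 56 and 15 UMIs. Its log2 ratio there was -3.11 (-3.97 to -2.20). The Cldn10 cluster, which held 53.0% of the control-labelled Lama4 UMIs, had 162 CPM in cKO-labelled and 91.5 CPM in control-labelled cells. In the Banf2 cluster the levels were 13.5 and 70.3 CPM, on 4 and 46 UMIs, and the endothelial markers summed to 290.3 and 325 CPM there, with 4 and 3 of 14 at 0. Pecam1 alone made up 182 and 235 CPM of these sums, and Cdh5 was at 0 in both libraries. Lama4 is an endothelial gene in these cells too, at 248 and 247 CPM in endothelial-like cells, and the endothelial markers in the biliary fraction were lower in the cKO-labelled library (37.5 against 51.6 CPM in sum). If all of those were free RNA they would bring 9.07 and 9.95 Lama4 UMIs, where 324 and 523 were counted. Their part in the Lama4 result was not tested beyond these values.

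Lama5 varied as much between wells as between libraries. The cKO-labelled wells had 382, 709, 460, 617 and 478 CPM, and control-labelled wells D9, D10, D11 and D12 had 546, 194, 295 and 474 CPM. The ranges overlapped, and 15 of 20 well pairs were higher. The library levels were 549 and 394 CPM, a log2 ratio of 0.48 (0.43 to 0.53). With wells summed within each cluster, Lama5 was higher in 6 of 6 shared clusters, with an interval above 0 in 5. The exception was the Grap2 cluster, at 0.02 (-0.19 to 0.22). These sums do not show the spread between wells, and their intervals do not cover it. Lama1, the alpha 1 chain of embryonic basement membranes, had 56 and 31 UMIs, and Lama2, the alpha 2 chain known from muscle and nerve, had 14 and 20. The interval of each ratio spanned 0.

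Laminin beta and gamma chains. Of the 5 chains, Lamb3 and Lamc3 had wells that did not overlap. Lamb3, the beta 3 chain that pairs with alpha 3 in laminin-332, had 79.3 to 100.2 CPM in cKO-labelled wells and 53.3 to 68.7 CPM in control-labelled wells. Its log2 ratio was 0.67 (0.54 to 0.81), and 0.51 (0.36 to 0.67) at an equal mix of clusters. Lamc3, the gamma 3 chain, had 25.2 to 36.2 CPM and 12.6 to 24.2 CPM over wells, a ratio of 0.68 (0.45 to 0.91). At an equal mix of clusters it was 0.02 (-0.52 to 0.56), and in the 3 shared clusters with enough counts Lamc3 was lower in cKO-labelled cells in each, with every interval spanning 0. The Hp cluster held 254 of its 453 cKO-labelled UMIs.

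The chains of the common laminins differed less. Lamc1, the gamma 1 chain of most laminins, had 469 to 566 CPM and 396 to 489 CPM over wells, which overlapped, and a log2 ratio of 0.23 (0.18 to 0.29). Lamb1 had 33.01 and 23.5 CPM, a ratio of 0.49 (0.28 to 0.71), and Lamb2 had 35.2 and 31.9 CPM, a ratio of 0.14 (-0.06 to 0.33). Their wells overlapped as well. Within clusters neither Lamb1 nor Lamc1 went 1 way. Each had an interval above 0 in 3 shared clusters and below 0 in 1, the Slc28a2 cluster for both.

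**Figure D2:**
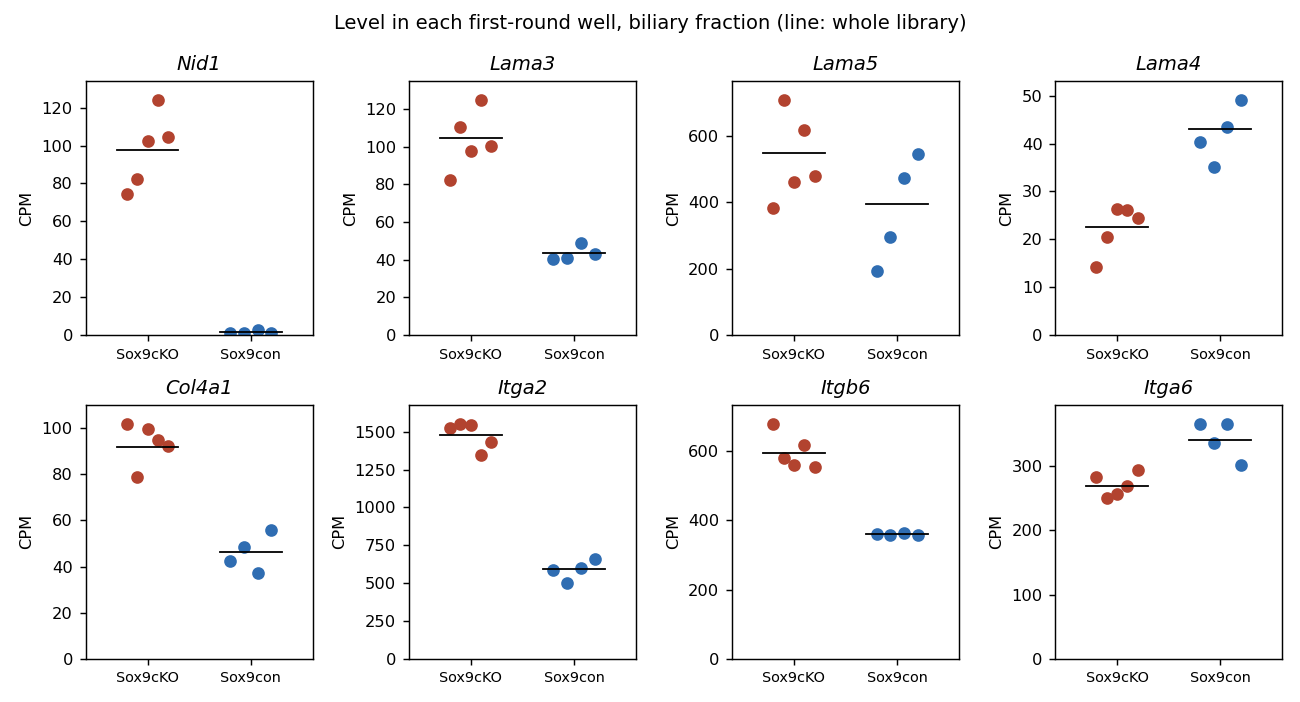
Level in CPM of 8 genes in each first-round well of the biliary fraction (points: 5 cKO-labelled wells in red, 4 control-labelled wells in blue) with the level of the whole library as a line. Nid1, Lama3, Col4a1, Itga2 and Itgb6 are higher in every cKO-labelled well, Lama4 and Itga6 lower in every one, and the wells of Lama5 overlap.

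Collagen IV. The 6 chains form trimers of Col4a1 and Col4a2 in nearly all basement membranes, of Col4a3, Col4a4 and Col4a5 in specialised ones such as that of the glomerulus, and of Col4a5 and Col4a6. Col4a1 had 102, 78.9, 99.6, 94.8 and 92.3 CPM in cKO-labelled wells and 55.8, 42.5, 48.6 and 37.1 CPM in control-labelled wells D9 to D12, with no overlap. Its log2 ratio was 0.99 (0.84 to 1.13). Col4a2 had 66.1 to 83.1 CPM and 40.9 to 48.3 CPM over wells, also with no overlap, and a ratio of 0.71 (0.56 to 0.86). At an equal mix of clusters both ratios were smaller, 0.35 (0.16 to 0.55) for Col4a1 and 0.39 (0.20 to 0.58) for Col4a2. Each was higher in 5 of 6 shared clusters, the exception being the Slc28a2 cluster, where Col4a1 had 131 and 164 CPM. In the Ifi202b cluster, with few control-labelled cells, Col4a1 had 89.6 and 142 CPM on 413 and 20 UMIs.

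The other chains had lower counts. Col4a3, with 280 and 168 UMIs, showed a ratio of 0.50 (0.22 to 0.78), and Col4a4, with 223 and 133 UMIs, one of 0.51 (0.19 to 0.83). The wells of both overlapped. Their intervals spanned 0 at an equal mix of clusters. Col4a5 had 63.5 and 62.1 CPM, a ratio of 0.03 (-0.11 to 0.17), which hid differences in both directions. It was higher in the Slc28a2 cluster, at 95.8 against 17.4 CPM, and in the Scgb3a1 cluster, at 59.1 against 19.4 CPM, while 2 of the 6 shared clusters had an interval below 0. Its ratio at an equal mix was 0.46 (0.24 to 0.69). Col4a6 had 125 and 36 UMIs, under the 200 needed to be counted, and a ratio of 1.55 (1.01 to 2.14). It was higher in 20 of 20 well pairs.

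These genes lie head to head on the genome. The Col4a6 and Col4a5 starts are 1342 bases apart on opposite strands of chromosome X, and their ratios differed (1.55 and 0.03). The first exons of Col4a1 and Col4a2 overlap by 22 bases on opposite strands of chromosome 8, and those genes had similar ratios. The 250 bases upstream of Col4a5 (chrX:141475169-141475418, plus strand) and Col4a6 (chrX:141474077-141474326, minus strand) and the bases shared by the Col4a1 and Col4a2 starts (chr8:11312805-11312826, plus strand) are shown to set these pairs side by side (RefSeq, GRCm38.p6). The capitals in Col4a5 mark CCAAT, and the other sequences hold none of the motifs searched.
Col4a5: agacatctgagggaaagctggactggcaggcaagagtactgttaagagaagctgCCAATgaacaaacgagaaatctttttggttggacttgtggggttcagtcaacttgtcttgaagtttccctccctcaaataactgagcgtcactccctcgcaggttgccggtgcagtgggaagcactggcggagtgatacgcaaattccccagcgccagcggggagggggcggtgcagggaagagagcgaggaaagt
Col4a6: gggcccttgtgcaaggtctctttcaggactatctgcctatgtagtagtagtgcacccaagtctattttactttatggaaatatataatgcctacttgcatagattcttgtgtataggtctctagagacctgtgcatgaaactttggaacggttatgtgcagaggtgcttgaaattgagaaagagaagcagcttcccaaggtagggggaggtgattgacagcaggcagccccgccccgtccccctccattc
Col4a1 and Col4a2 overlap: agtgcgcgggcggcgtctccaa

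Proteoglycans. Hspg2 encodes perlecan and Agrn encodes agrin, which both carry heparan sulfate and bind laminin. Hspg2 had 178, 274, 240.4, 363 and 323 CPM in cKO-labelled wells and 293, 111, 131 and 220 CPM in control-labelled wells D9 to D12. The ranges overlapped, although the library ratio was 0.49 (0.42 to 0.57). Hspg2 was higher in 6 of 6 shared clusters, with an interval above 0 in 5. Agrn had 128 to 197 CPM and 94.6 to 177 CPM over wells and a log2 ratio of 0.23 (0.14 to 0.32). At an equal mix of clusters its interval spanned 0 (0.08, -0.06 to 0.21). Among the control-labelled wells, D10 was lowest and D9 highest for Lama5, Hspg2, Agrn and Itgb4 alike.

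Collagen-binding integrins. Itga2 (ENSMUSG00000015533) encodes integrin alpha 2, which pairs with beta 1 as a collagen receptor. It had 1522, 1554, 1543, 1346 and 1431 CPM in cKO-labelled wells and 656, 585, 498 and 597 CPM in control-labelled wells D9 to D12. No wells overlapped, and the ratios of well pairs ran from 1.04 to 1.64 on the log2 scale. The biliary fractions as a whole held 21277 UMIs (1482 CPM) and 7252 UMIs (596 CPM), a log2 ratio of 1.31 (1.28 to 1.35). After thinning, 73.1% of cKO-labelled cells (71.3 to 74.9) and 47.0% of control-labelled cells (45.2 to 48.9) had an Itga2 UMI. Of the endothelial-like cells left after thinning, 16.1% of 56 and 5.63% of 71 did. Before thinning and with no cell dropped, median depths were 5128 and 3226.5 UMIs in biliary cells and 2399 and 2318 UMIs in endothelial-like cells. Unthinned shares were 81.8% and 52.6% in biliary cells.

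The Itga2 difference was larger in some clusters than in others. In the Slc28a2 cluster Itga2 stood at 1757 against 185 CPM, with a log2 ratio of 3.24 (3.02 to 3.48). It was 1.51 (1.11 to 1.92) in the Banf2 cluster, 1.02 (0.94 to 1.11) in the Scgb3a1 cluster, 0.73 (0.59 to 0.88) in the Grap2 cluster and 0.30 (0.19 to 0.40) in the cluster led by Muc6 and Cpa1. In the Cldn10 cluster Itga2 was lower, at 297 against 397 CPM (-0.42, -0.81 to -0.06). The ratio was 0.92 (0.87 to 0.98) at an equal mix of clusters. Itga1, the alpha chain of another collagen receptor, had 43.1 to 57.0 CPM and 20.7 to 34.1 CPM over wells, which did not overlap, and a ratio of 0.91 (0.72 to 1.10). Over all kept cells it was 0.45, with 664 and 675 CPM of Itga1 in the endothelial-like cells among them. The Pelo gene lies within Itga1 on the same strand, so reads of both may be hard to assign. The 250 bases upstream of Itga2 (RefSeq, GRCm38.p6, chr13:114932101-114932350, minus strand) are shown because Itga2 had the most UMIs of the genes at least 2-fold apart. They hold none of the motifs searched.
Itga2: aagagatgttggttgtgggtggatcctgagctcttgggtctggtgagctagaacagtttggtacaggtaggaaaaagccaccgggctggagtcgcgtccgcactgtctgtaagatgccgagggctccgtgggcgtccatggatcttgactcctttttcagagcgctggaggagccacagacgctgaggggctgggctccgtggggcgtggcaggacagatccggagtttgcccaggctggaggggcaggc

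Laminin-binding integrins. Itga6 encodes integrin alpha 6, which pairs with beta 4 in hemidesmosomes and also with beta 1. It had 283, 249.96, 257, 269 and 294 CPM in cKO-labelled wells and 302, 366, 335 and 365 CPM in control-labelled wells D9 to D12. All cKO-labelled wells were lower, though the closest pair differed by only 0.04 on the log2 scale. The library ratio was -0.34 (-0.40 to -0.27), and -0.18 (-0.26 to -0.10) at an equal mix of clusters. Itga6 was lower in 5 of 6 shared clusters, with an interval below 0 in 2, the Scgb3a1 and Muc6 clusters. Itgb4, its hemidesmosome partner, had 46.5 to 80.8 CPM and 45.4 to 69.6 CPM over wells, which overlapped, and a ratio of 0.29 (0.15 to 0.43). It was higher in 6 of 6 shared clusters, with an interval above 0 in 2. Itga3, the alpha chain of the laminin-332 and laminin-511 receptor, had 496 and 408 CPM, a ratio of 0.28 (0.23 to 0.33), with overlapping wells. Itga9, a receptor chain for tenascin and other ligands, had 343 and 330 UMIs and a ratio whose interval spanned 0.

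Integrins of the alpha v group. Itgav encodes alpha v, and Itgb6, Itgb8, Itgb5 and Itgb3 encode beta chains that pair with it. Itgb6 and Itgb8 are known for binding latent TGF-beta. Itgb6 had 680, 581, 560.1, 618 and 554 CPM in cKO-labelled wells and 357, 362, 357 and 363 CPM in control-labelled wells D9 to D12. The control-labelled wells were close to each other and every cKO-labelled well was above them. The log2 ratio was 0.72 (0.67 to 0.77), and it was above 0 with its interval in 6 of 6 shared clusters, from 0.55 to 1.16. Itgav had 1087 to 1249 CPM and 796 to 887 CPM over wells, a ratio of 0.51 (0.48 to 0.55), and its interval was also above 0 in 6 of 6 shared clusters. The widest gap for Itgav was in the Slc28a2 cluster, at 2092 against 572 CPM. In the Ifi202b cluster, which is not among the shared ones, the order was turned. Its 27 control-labelled cells had 2192 CPM of Itgav and 844 CPM of Itgb6, against 1099 and 537 CPM in cKO-labelled cells.

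The other beta chains did not follow. Itgb8 had 58.0 and 77.4 CPM, a ratio of -0.42 (-0.55 to -0.28), but 2 of 20 well pairs were higher, and at an equal mix of clusters it was 0.03 (-0.18 to 0.24). That value hid differences in both directions, as the interval of Itgb8 lay above 0 in 2 shared clusters and below 0 in 2. Itgb5 had 33.2 and 37.4 CPM, with an interval across 0, and it lay below 0 in each of the 6 shared clusters with each interval across 0. After thinning its ratio was 0.04. Itgb1, the common partner of the collagen and laminin receptors, had 457 and 452 CPM, a ratio of 0.01 (-0.04 to 0.07). Well pairs ran from -0.38 to 0.40, and all intervals in the 6 shared clusters spanned 0. Itga5, the fibronectin receptor chain, had 203 and 192 CPM, a ratio of 0.08 (0.004 to 0.16). Itgb3 had 25 UMIs and 1 UMI in the biliary fraction.

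**Figure D3:**
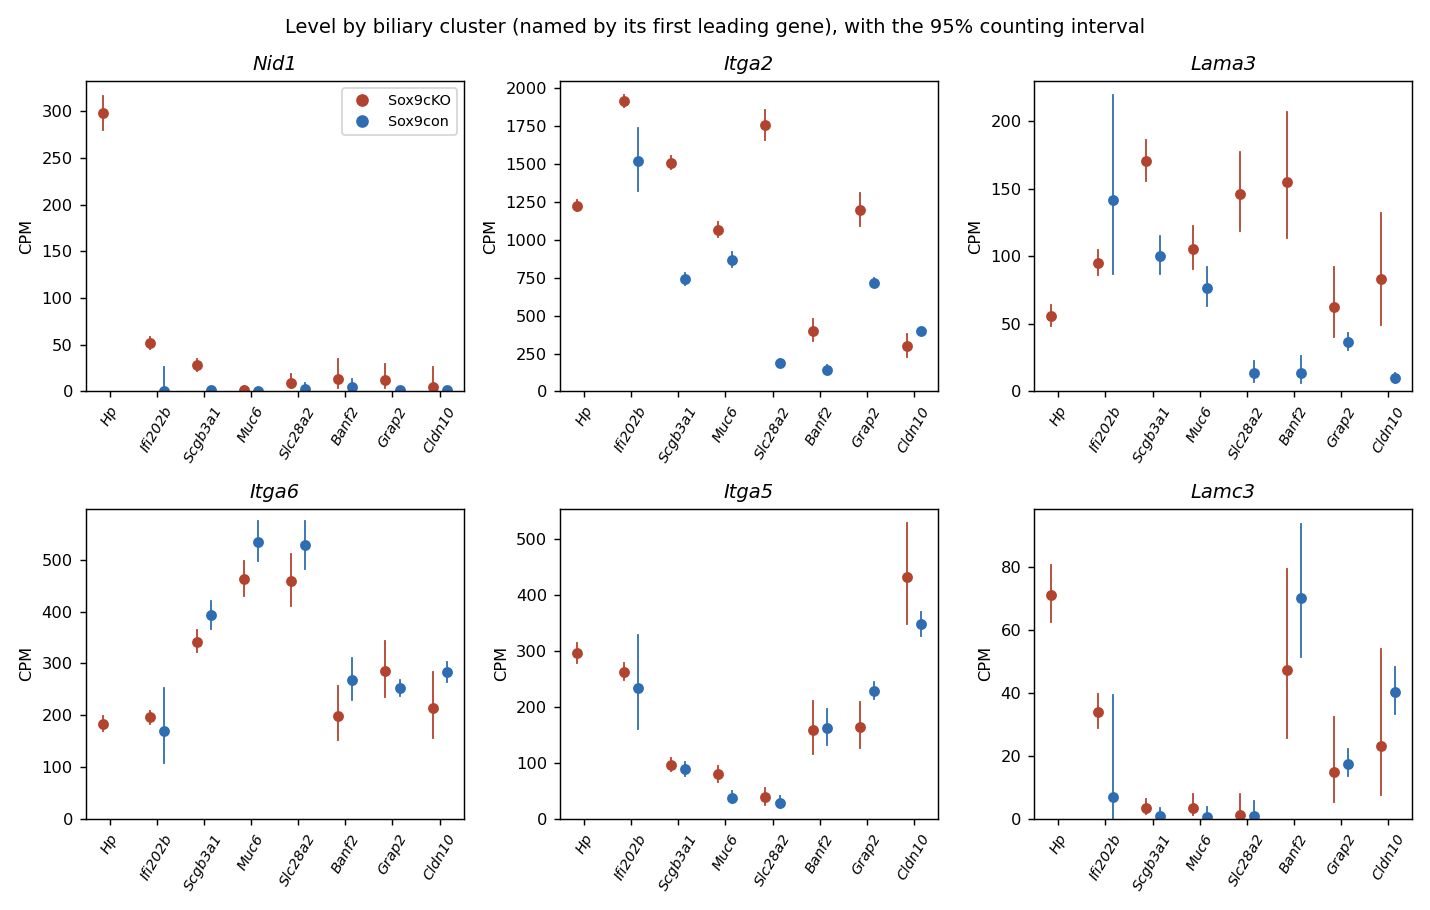
Level in CPM of 6 genes in each biliary cluster, named by its first leading gene (points: red cKO-labelled, blue control-labelled; lines: 95% counting interval; clusters with under 20 cells of a library are not drawn for it). Nid1 is concentrated in the Hp cluster at 298 CPM, Itga2 differs most in the Slc28a2 cluster at 1757 against 185 CPM, and Itga5 is higher in the Cldn10 cluster than in the Muc6 and Slc28a2 clusters in both libraries.

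Clusters differed from each other in these genes as well as libraries did. Itga5 had 431 and 347 CPM in the Cldn10 cluster and 38.6 and 28.6 CPM in the Slc28a2 cluster. Itga6 ran in the other order, with 213 and 283 CPM in the Cldn10 cluster and 459 and 527 CPM in the Slc28a2 cluster. Hspg2 had 408 and 304 CPM in the former and 37.2 and 10.2 CPM in the latter. Itgb6 had 1323 and 904 CPM in the Muc6 cluster and 190.1 and 112 CPM in the Cldn10 cluster. The clusters were made without any of the 33 genes, so these orders were not built in. The Scgb3a1 cluster has Msln, a mesothelial marker, among its 10 leading genes. No biliary cluster has a biliary marker among its leading genes, and in this one 11 of 12 biliary markers were detected. The mesothelial markers summed to 213 and 225 CPM there with 0 and 1 of 5 at 0. Msln alone made up 189 and 196 CPM of these sums. With all kept cells in place of the biliary fraction, 23 of the 28 genes were above 0 and the median was 0.46.

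Endothelial-like cells held a different set. Of the 33 genes, 9 were at least 2-fold higher there than in biliary cells in both libraries (background 13.4%), and each of the 9 had both counting intervals above 0 (background 9.37%). They were the nidogens Nid1 and Nid2, Lama4, Col4a1, Col4a2, Hspg2, Itga1, Itga9 and Itgb3. Another 15 were at least 2-fold lower (background 27.7%), of which 10 had both intervals below 0 (background 7.48%). These were Lama5, Lamb3, Lamc1, Lamc3, Col4a5, Itga2, Itga3, Itgav, Itgb6 and Itgb8. Of the 33, 9 were called in neither direction. With 262208 and 356960 UMIs in all, a count of 0 allows up to 11.4 and 8.40 CPM in the endothelial-like cells. Lama1, Lama2, Col4a3, Col4a4 and Col4a6, with 0 to 2 UMIs each per library, were not resolved at this depth.

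Among the genes higher in endothelial-like cells, Itga9 had 458 and 569 CPM there against 23.9 and 27.1 CPM in biliary cells, log2 ratios of 4.26 (3.95 to 4.56) and 4.39 (4.13 to 4.65). Itga1 had 664 and 675 CPM against 50.3 and 26.9 CPM. Col4a1 had 595 and 459 CPM, with ratios of 2.69 (2.44 to 2.93) and 3.30 (3.05 to 3.56), and Col4a2 had 458 and 289 CPM, with ratios of 2.62 and 2.67. Between the libraries, the counting interval of the ratio within endothelial-like cells lay above 0 for Col4a2 (0.66, 0.27 to 1.06), Hspg2 (0.51, 0.22 to 0.81), Col4a1 (0.37, 0.05 to 0.70), Agrn (0.57, 0.01 to 1.14) and Lamb1 (2.68 on 7 UMIs and 1 UMI), and below 0 for Nid1. The wells of each of these overlapped. For Nid1 the ratios were 1.59 (1.24 to 1.92) in the cKO-labelled and 8.09 (7.48 to 8.94) in the control-labelled library. Itgb3, a beta chain of the vitronectin receptor, had 80.1 and 104 CPM in endothelial-like cells, on 21 and 37 UMIs. In the biliary fraction it had 25 UMIs and 1 UMI. Were all endothelial marker UMIs there free RNA, they would bring 2.93 and 4.18 Itgb3 UMIs, the latter more than the 1 counted. The part of free RNA in these counts was not tested. Over all kept cells the Itgb3 ratio between libraries was 0.04.

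The genes lower in endothelial-like cells were mostly those of the epithelial laminins and of the alpha 2, alpha 3 and alpha v receptors. Itga2 had 130 and 129 CPM there, log2 ratios to biliary cells of -3.51 (-4.04 to -3.03) and -2.21 (-2.66 to -1.79). Itga3 had 83.9 and 70.04 CPM, with ratios of -2.56 and -2.54, and Itgb6 had 80.1 and 89.6 CPM, with ratios of -2.888 and -2.004. Col4a5 had 0 UMIs in cKO-labelled endothelial-like cells, at least 5.55-fold lower than in biliary cells against a floor of 3 counts in that library, and 1 UMI in control-labelled cells (ratio -4.43, -9.78 to -1.99). Lama5 had 160 and 143 CPM, with ratios of -1.78 and -1.46. Itgb1 was close to even, with 538 and 541 CPM and ratios of 0.24 (-0.02 to 0.48) and 0.26 (0.04 to 0.46), and so was Itga5, with ratios of -0.15 and -0.19 and intervals across 0. Biliary markers summed to 1651 and 1785 CPM in endothelial-like cells against 11473 and 17286 CPM in biliary cells. Their part in these levels was not tested.

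**Figure D4:**
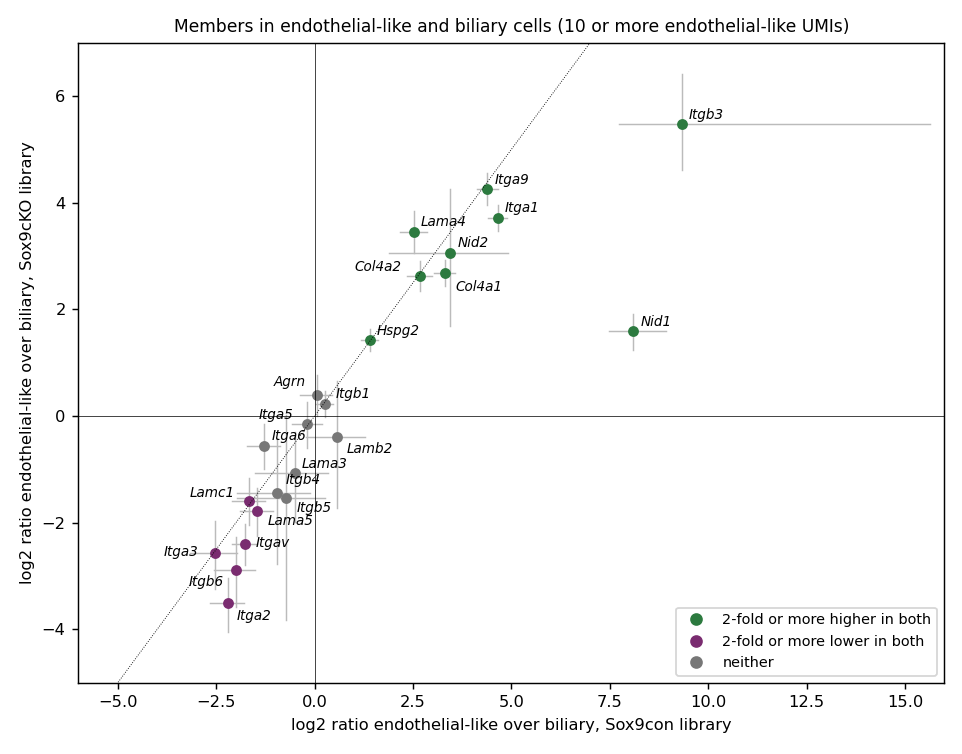
Log2 ratio of endothelial-like over biliary cells in the control-labelled library (x axis) and the cKO-labelled library (y axis) for the 23 genes with at least 10 endothelial-like UMIs, with 95% counting intervals; the dotted line marks equal ratios. Most genes lie near the line, with Itga9 and Itga1 high and Itga2 and Itga3 low in both, while Nid1 and Itgb3 lie well to the right of it.

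Shared cells were counted for the 8 laminin and 12 integrin genes with a UMI in at least 2% of biliary cells of each library after thinning to 2000 UMIs, which makes 190 pairs. A pair was called when the number of cells with both genes lay above that expected from independence in both libraries by its counting interval. By that rule 8 pairs shared cells more often (background 0.11% of 31224753 gene pairs) and 4 less often (background 0.0915%). The background was not matched for detection. A call is easier where more cells are expected, such as 1040 and 618 for Lama5 and Itga2. How far detection accounts for the gap to the background was not tested. The first were Lama5 and Itga2, Lamb3 and Itga6, Lamb3 and Itgb6, Lamc1 and Itgb6, Lamc3 and Itga9, Itga2 and Itga3, Itga6 and Itgb4, and Itgav and Itgb6. The others were Lamb3 and Lamc3, Lamc1 and Itga5, Lamc3 and Itgb6, and Itga5 and Itga6.

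Of the known receptor pairs, alpha 6 with beta 4 was seen in 126 cKO-labelled cells where 105 were expected (ratio 1.203, 1.002 to 1.43) and in 154 control-labelled cells where 129 were expected (1.195, 1.01 to 1.40). Alpha v with beta 6 was seen in 931 against 834 cells (1.12, 1.05 to 1.19) and in 636 against 582 (1.09, 1.01 to 1.18). Itgb1 was near independence with each of its partners. Its ratios were 1.001 and 1.001 with Itga2, 1.04 and 1.01 with Itga3, and 1.02 and 1.02 with Itga6, and each interval spanned 1. Itgav was near independence with Itgb5 (1.001 and 0.94) and Itgb8 (1.09 and 0.98). Within laminins, Lama5 with Lamc1 had ratios of 1.02 and 1.02, and Lama3 with Lamb3 had 1.28 (1.01 to 1.597) and 1.22 (0.79 to 1.80), which missed the call in the control-labelled library. Lamb3 and Lamc3 were found together in only 10 and 2 cells, where 22.1 and 10.8 were expected.

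These pairs were not called within clusters. When the expected number was computed within each cluster, 0 of the 190 pairs were called in either direction (background 0.0172% for more often). Alpha v with beta 6 was then 1.084 (1.02 to 1.16) in the cKO-labelled library. Among the other basement membrane genes, Col4a1 and Col4a2 shared 80 cells where 31.2 were expected (2.56, 2.03 to 3.19) and 39 where 13.2 were expected (2.95, 2.09 to 4.03). That was the only pair of the genes tested here that was still called within clusters, at 2.41 and 2.17. The starts of these genes overlap on opposite strands, and whether the authors' counting used strand is not given in the sources used here. Col4a3 and Col4a4 shared 8 and 4 cells, where 2.54 and 1.48 were expected. Hspg2 shared cells with Itga5 more often (1.22 and 1.26) and with Itgb6 less often (0.84 and 0.77), but neither was called within clusters.

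**Figure D5:**
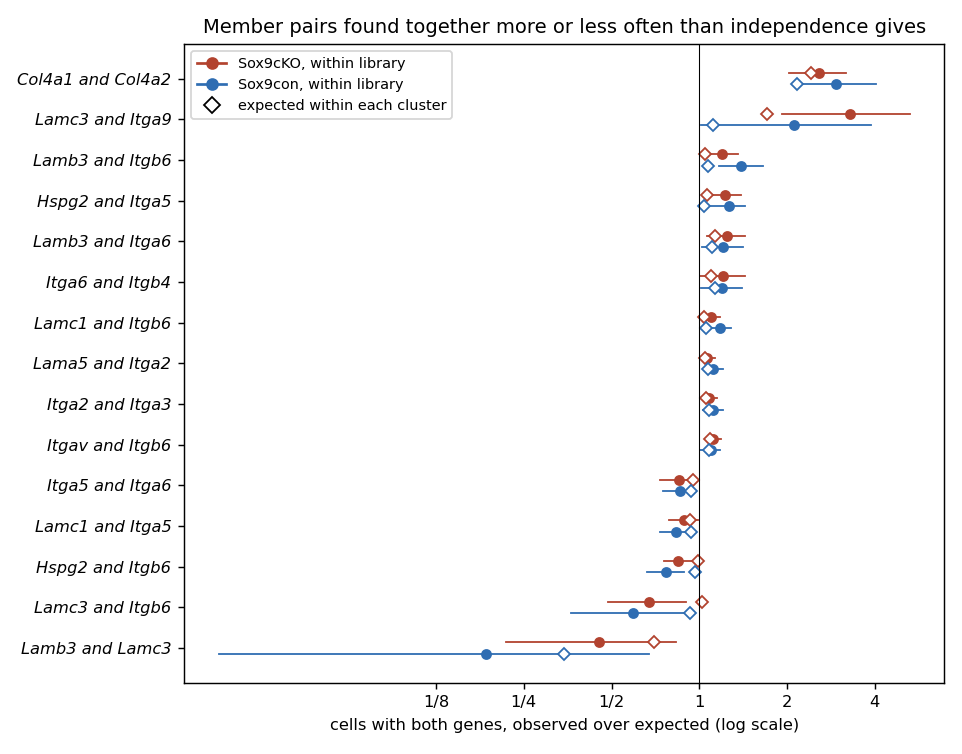
Cells with a UMI of both genes, observed over expected (log scale), for the called pairs in cKO-labelled (red) and control-labelled (blue) biliary cells thinned to 2000 UMIs, with the 95% counting interval; open diamonds use the number expected within each cluster. Col4a1 and Col4a2 stay near 2.41 and 2.17 within clusters, and most other diamonds move towards 1.

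A wider list of 71 genes of matrix, receptors, adhesion adaptors and proteases was read beside the 33. Of these, 49 had at least 200 UMIs, 24 were above 0 and the median was -0.03, close to that of all genes. At least 2-fold higher were 7 (background 2.19%) and lower were 0 (background 1.8%). The 7 were the ligands Fn1 (fibronectin, 500.4 against 155 CPM, log2 ratio 1.69) and Vtn (vitronectin, 214 against 10.2 CPM, 4.39), the basement membrane proteins Npnt (1.03) and Frem2 (1.12), the linker Dst (1.04), Itga7 (1.02) and the protease Mmp7 (2.20). At an equal mix of clusters Fn1, Vtn and Mmp7 stayed at least 2-fold higher (1.06, 3.10 and 1.74), while Npnt was at 0.62, Frem2 at 0.67 (-0.06 to 1.40), Dst at 0.40 and Itga7 at 0.52. Wells did not overlap for 12 higher genes (background 7.64%) and 4 lower ones (background 8.36%). Of the 15 adhesion adaptors tested, 0 were at least 2-fold apart, and of 6 chaperones and crosslinkers 0 were.

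RefSeq held a promoter entry for 23 of the 33 genes. The motif ACAAT, the core bound by SOX factors, was found on either strand in the 250 upstream bases of 3 of the 23 genes (Itga5, Itga9 and Itgb6), where 27.7% of 32851 promoters of that length hold it. CATTCC was found in 3 (12.6% of promoters), CCAAT in 7 (33.8%) and TATAAA in 0 (12.4%). A gene was counted where any of its entries matched, and Agrn, Itga3, Itgb6 and Lamb3 have more than 1 entry. The background counts single promoters, so the shares are not fully alike. No motif contains another, and a match describes the letters in this window only.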

How the data were processed

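Single cells were barcoded over several rounds (Parse Evercode), and the authors deposited UMI counts per gene and cell for 2 libraries, as raw counts with no normalization, per the file headers. The headers name the genome mg39 and the submitters' processing notes name GRCm39. The aligner and the strand setting are not given in the sources used here. Cells with at least 500 genes, 1000 UMIs and at most 15% mitochondrial UMIs were kept, which removed 27 and 115 cells. Scrublet (scanpy 1.11.5) marked 3 of 6362 cells (0.0472%), too few to count as a working doublet call. Cells were clustered without Sox9 and the 33 genes (2000 variable genes, 30 components, 15 neighbours, Leiden resolution 0.5) and named from fixed marker lists. The 50 CPM marker level and the rules that left clusters unnamed were set with the data in view. UMIs were summed per library, and log2 ratios used 0.5 counts as pseudocount, with exact binomial, Poisson or Clopper-Pearson intervals of 95%. TMM (edgeR 4.0.16) and DESeq2 1.42.0 were used for scaling factors alone. Every gene of the 33 with at least 20 UMIs was named, and of the wider list those at least 2-fold apart with at least 200 UMIs. The genes, lists and tests were chosen with earlier results of these data known. The scripts were tested on simulated counts. Biliary wells held 2106827 to 3812574 and 2138644 to 3908913 UMIs. Sequences and gene overlaps were read from GRCm38.p6 tables, an older build than the counts. Some items are not reported here.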

Additional observations from a re-analysis of the deposited data

Results flagged for a closer look

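Nid1 went in opposite directions in the compared cell classes. Its log2 ratio, cKO-labelled over control-labelled, was 5.93 in the biliary fraction and -0.61 in endothelial-like cells, where the wells of the libraries overlapped. With 1 library per label the difference between these ratios was not tested.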

How the results depend on the processing

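The number of genes at least 2-fold higher was 3, and it was 5 with TMM scaling, 5 with DESeq2 size factors, 6 with a minimum of 20 UMIs and 6 with no minimum above 1 UMI, where genes with few counts enter. Over all genes the number rose too, from 204 of 9322 to 246 with TMM and 250 with DESeq2. It was 610 of 14881 with a minimum of 20 UMIs and 2196 of 22726 with no minimum above 1 UMI. The number of member genes at least 2-fold lower was 0 in every setting run. The Nid1 ratio of 5.93 was 2.76 over all kept cells, 3.29 at an equal mix of clusters and 4.29 without the cluster with most of its UMIs. The median ratio of 0.48 was 0.27 without well D10, the lowest of the values that leave out 1 well, which reached 0.53. Of the laminin and integrin pairs, 8 were called, 0 with the number expected within clusters and 3 with cells thinned to 1000 UMIs. Without well D9, 233 of all genes were at least 2-fold higher and 387 lower. The ratios that changed sign were those of Lama2 (0.32 over all kept cells), Itgb5 (0.04 with cells thinned to 2000 UMIs), Col4a5 (-0.11 with thinned cells, -0.03 without well D9) and Itgb1 (-0.05 without well D12), each with an interval across 0 at the outset. At an equal mix of clusters the sign also changed for Lama4 (-0.93 to 0.07) and Itgb8 (-0.42 to 0.03), whose intervals had lain below 0, and for Lama1 (0.61 to -0.10), Itga9 (-0.18 to 0.12) and Itgb1 (0.01 to -0.02). For the values that moved with scaling, population or well the cause was not tested. No paired analysis was possible because there is 1 library per label. Counts of under 20 UMIs, and endothelial-like levels under 11.4 and 8.40 CPM, were below what this depth resolves.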
